A study of Mus musculus with 24 samples.

Results

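The transcripts described here are 44 genes of the liver's extracellular matrix and of its stellate cells, chosen by name from the 24319 genes listed in each of the 2 deposited expression tables. They were set apart as 12 collagens, 11 other matrix proteins, 10 matrix enzymes and inhibitors, 4 contractile and filament genes, 3 genes of quiescent stellate cells, and 4 receptors and TGF-beta ligands. Male C57/BL6 mice aged 2 months gave 24 samples, 12 of whole liver and 12 of isolated hepatocytes, with 3 biological replicates for each of 4 genotypes. The genotypes were wild type (WT), IkkB KO (Alb-Cre+;IkkBf/f), Shp2 KO (Alb-Cre+;Shp2f/f) and Double KO (Alb-Cre+;IkkBf/f;Shp2f/f). IkkB is a kinase that activates NF-κB, and Shp2 is a phosphatase on the route from growth factor receptors to Ras and Erk. Cre was driven by the albumin promoter, which is active in hepatocytes, so the deletions were not directed at stellate cells. Whether the WT mice carried Cre or floxed alleles is not given in the sources used here.

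The authors deposited 1 value per gene and genotype, pooled over the 3 replicates, so no SD can be given for any value below and the depth behind it is unknown. Values are per transcript length by the convention of Cuffdiff, the program that made the tables, and lie on the FPKM scale (fragments per kilobase of transcript, scaled to library size), although the tables do not name their unit. A gene counted as tested where the authors' deposited table reported a completed test and the value reached 0.1 in 1 of the 2 genotypes, and as called where its q was under 0.05. Differences are given on the log2(value + 1) scale, which understates changes of genes with low values. The liver table and the hepatocyte table were normalized separately, so no level was tested between them. Values of both targeted genes were lowest in the genotypes labelled for their loss: Ikbkb was 6.31 to 9.48 in IkkB KO and Double KO liver and 14.2 to 15.7 in the others, and Ptpn11 was 4.09 to 6.09 in Shp2 KO and Double KO liver and 10.1 to 12.5 in the others. In hepatocytes Ikbkb was 5.29 to 7.16 and 15.1 to 17.3 for the same groupings, and Ptpn11 4.465 to 5.77 and 14.5 to 16.3. The hepatocyte marker Ttr was 5731 to 10049 in the 4 liver values. In hepatocytes Ttr was 8481 in WT, 8130 for IkkB KO, 4469 for Shp2 KO and 7842 for Double KO, not called against WT. Of 14 hepatocyte markers, Cyp2e1 was called lower than WT in IkkB KO hepatocytes (11 tested) and Apoa1 in Shp2 KO hepatocytes (12 tested). Of all tested genes, 1.81% and 4.53% were called lower there. In liver, Fgb was called lower in Shp2 KO and G6pc in Double KO (11 tested in each), beside 4.10% and 6.62% of all genes. Alb and Serpina1c were under 0.1 in every genotype, in liver and in hepatocytes. Apoa1 was listed at 0 in IkkB KO hepatocytes, with no completed test.

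Hepatic stellate cells lie between the hepatocytes and the sinusoid wall. At rest they store vitamin A and express Lrat, which makes retinyl esters, and Reln and Hgf, a secreted glycoprotein and a hepatocyte growth factor. When the liver is injured they can become myofibroblasts, which lay down fibrillar collagens, cross-link them with lysyl oxidases and contract through smooth muscle actin, and TGF-beta and PDGF are main signals in that change. All of these RNAs were measured in bulk, where more cells of a type and more RNA per cell cannot be told apart.

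The promoters of 4 members are shown because these genes stand for the classes whose patterns differed most below: Col1a2 and Col3a1 encode fibrillar collagen chains, Acta2 the smooth muscle actin, and Lrat the retinyl ester enzyme. Each run is the 250 bases before the annotated start, 5′ to 3′ on the gene's strand, from RefSeq on build GRCm38.p6, with CCAAT in either direction in capitals. Col1a2 lies at chr6:4505368-4505617 on the plus strand, Col3a1 at chr1:45311288-45311537 on the plus strand, Acta2 at chr19:34255374-34255623 on the minus strand and Lrat at chr3:82903975-82904224 on the minus strand.
Col1a2: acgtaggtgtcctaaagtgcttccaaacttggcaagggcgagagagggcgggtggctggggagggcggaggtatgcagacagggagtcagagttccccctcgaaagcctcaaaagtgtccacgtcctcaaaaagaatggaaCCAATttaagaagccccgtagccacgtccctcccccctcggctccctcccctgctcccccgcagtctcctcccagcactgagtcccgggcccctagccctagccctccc
Col3a1: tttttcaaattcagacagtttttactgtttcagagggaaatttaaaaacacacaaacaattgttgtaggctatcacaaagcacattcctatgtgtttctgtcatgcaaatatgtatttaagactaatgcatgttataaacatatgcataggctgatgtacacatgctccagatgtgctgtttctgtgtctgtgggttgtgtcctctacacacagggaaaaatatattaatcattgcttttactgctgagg
Acta2: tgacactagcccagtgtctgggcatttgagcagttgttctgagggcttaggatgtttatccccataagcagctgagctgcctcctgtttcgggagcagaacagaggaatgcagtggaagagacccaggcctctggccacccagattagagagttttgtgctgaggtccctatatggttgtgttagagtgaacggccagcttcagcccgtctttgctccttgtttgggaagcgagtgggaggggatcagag
Lrat: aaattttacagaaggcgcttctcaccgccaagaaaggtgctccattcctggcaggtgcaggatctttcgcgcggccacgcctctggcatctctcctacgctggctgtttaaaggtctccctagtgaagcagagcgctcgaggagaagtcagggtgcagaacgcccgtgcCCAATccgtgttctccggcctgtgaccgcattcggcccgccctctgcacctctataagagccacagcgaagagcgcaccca
CCAAT, searched on both strands, occurred once in the Col1a2 window and once in the Lrat window, and these letters were not in the Col3a1 and Acta2 windows. Of all 32851 promoter windows of this length, 33.8% held CCAAT. The 30 members with a window had 34 windows, and 9 of these members had CCAAT in at least 1. The first share counts windows and the second counts genes. TGANTCA, the letters of the AP-1 site, stood in 6.75% of all windows and in those of Col6a1, Ecm1, Mmp12 and Mmp13. The NF-kB motif stood in 3.90% of all windows and in those of Des and Vim. The exact CArG box letters, CCWWWWWWGG with W for A or T, stood in 1.47% of all windows and in no member's. Variants with another base inside, such as ccctatatgg and ccttgtttgg in the Acta2 window, were not searched for, so a CArG element is not excluded there. Col1a2 and Col3a1, with similar differences below, were unlike in these letters. The Col4a1 and Col4a2 starts lie 21 bases apart on opposite strands of chromosome 8.

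In whole liver, collagens were highest in Double KO. The 12 collagens are the fibrillar chains of collagens I, III and V, the basement membrane zone collagens IV and XV, and the microfibril and fibril-associated collagens VI and XIV. Col1a1, the main chain of type I collagen, was 3.77 in WT, 2.71 for IkkB KO, 6.33 for Shp2 KO and 20.7 for Double KO. Its partner Col1a2 was 5.16, 3.90, 7.09 and 19.6 in the same order. Col3a1, the chain of type III collagen, was 9.10, 6.37, 12.2 and 35.4. Double KO stood 3.80 to 5.49 times above WT for these 3 genes, and the order IkkB KO, WT, Shp2 KO, Double KO was the same in each. Col5a2, a regulator of fibril width, was 0.723, 0.590, 0.990 and 3.17, a 4.38-fold rise in Double KO over WT. All 5 fibrillar collagens had q = 0.000955 for Double KO against WT, the smallest q in the authors' deposited table for liver.

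The basement membrane and fibril-associated collagens rose too, with 1 exception. Col4a1 and Col4a2, the main chains of the basement membrane, rose 2.01-fold and 1.91-fold over WT in Double KO, to 11.3 and 7.63. Their annotated exons overlap on opposite strands, so reads of this pair may not have been told apart fully. The 3 chains of collagen VI rose 1.68-fold to 2.78-fold, with Col6a3 at 1.03 in WT and 2.87 in Double KO. Col14a1 rose from 5.80 to 9.71. Col15a1, a collagen of the basement membrane zone, was the 1 collagen that was not called against WT, at 1.41 in WT and 1.76 in Double KO (q = 0.476 in the authors' deposited table). In all, 11 of 12 collagens rose in Double KO liver, with a median difference of 0.85.

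**Figure D1:**
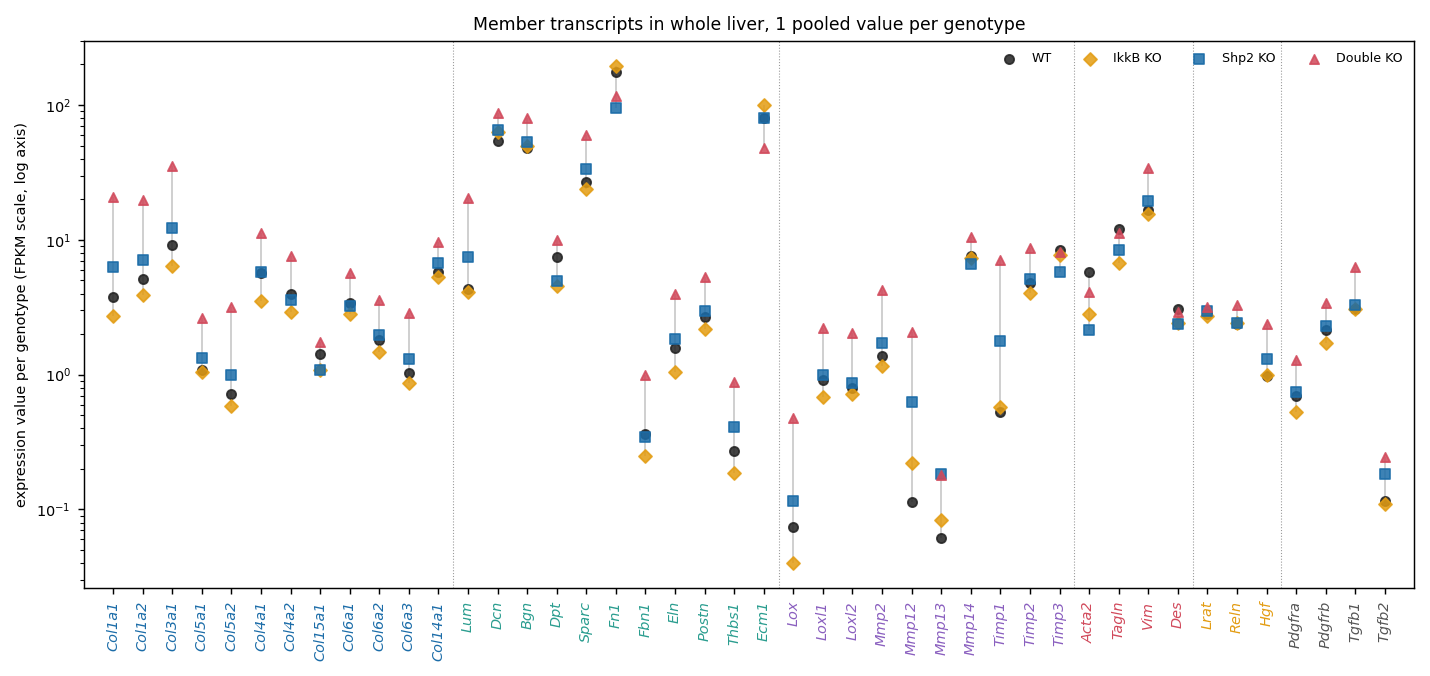
Deposited value of each of the 44 members in whole liver (log axis, FPKM scale), 1 point per genotype with no error bar, since each point pools 3 replicates. Names are coloured by class, and the fibrillar collagens at the left run from 0.590 to 35.4 with Double KO on top.

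Among the other matrix proteins, the small leucine-rich proteoglycans that bind collagen fibrils were also highest in Double KO liver. Lum was 4.28 in WT, 4.13 for IkkB KO, 7.52 for Shp2 KO and 20.5 for Double KO. Dcn was already abundant in WT at 54.0 and rose to 87.4 in Double KO (q = 0.00503 in the authors' deposited table). Bgn rose from 47.9 to 79.9 (q = 0.00379 in the authors' deposited table). The proteoglycans thus differed in scale, 4.78-fold for Lum against 1.62-fold for Dcn and 1.67-fold for Bgn. In IkkB KO, where every collagen value was below WT, Dcn and Bgn were above WT, at 63.4 and 50.0, and not called. Dpt, a small protein that helps fibrils assemble, was 7.45 in WT and 10.05 in Double KO (q = 0.240 in the authors' deposited table).

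Elastic fibre and matricellular genes also rose in Double KO liver. Fbn1 and Eln, the proteins of microfibrils and of elastin, went from 0.364 to 0.996 and from 1.57 to 3.97. Sparc, a collagen-binding glycoprotein, rose from 26.7 to 59.7, Postn from 2.70 to 5.27, and Thbs1, which can activate latent TGF-beta, from 0.270 to 0.889. The 2 most abundant glycoproteins did not follow. Fn1, fibronectin, which hepatocytes secrete into plasma, was 177 in WT, 196 for IkkB KO, 94.4 for Shp2 KO and 117 for Double KO (q = 0.137 for Double KO against WT in the authors' deposited table). Ecm1, a secreted matrix glycoprotein, was 80.7, 99.9, 80.5 and 48.0, and was the 1 member that fell in Double KO against WT (q = 0.000955 in the authors' deposited table). Of the 11 matrix proteins, 8 rose and 1 fell.

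All 3 cross-linking lysyl oxidases rose in Double KO. Lox was 0.0738 in WT, 0.0398 for IkkB KO, 0.116 for Shp2 KO and 0.474 for Double KO, low values throughout. Loxl1 rose 2.43-fold to 2.23 and Loxl2 2.58-fold to 2.05. Among the metalloproteinases, which cut matrix proteins, Mmp2 rose from 1.38 to 4.23. Mmp12, an elastase typical of macrophages, was 0.114, 0.222, 0.627 and 2.07, an 18.2-fold rise over WT (its exons overlap Mmp1b on the other strand) and the largest fold among the members with a value of at least 0.1 in WT. Mmp14, which activates Mmp2, was 7.62 in WT and 10.5 in Double KO (q = 0.0991 in the authors' deposited table). Mmp13 was at most 0.184 and was not tested.

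The metalloproteinase inhibitors split. Timp2 rose from 4.78 to 8.72. Timp1 was 0.528 in WT, 0.580 for IkkB KO, 1.78 for Shp2 KO and 7.05 for Double KO, 13.3 times the WT value, yet it was not called (q = 0.228 in the authors' deposited table). Timp1 lies within the span of Syn1 and Timp3 within that of Syn3, and strand use in the counting is not given in the sources used here. Timp3 was 8.39 in WT and 8.07 in Double KO. Of 9 tested enzymes and inhibitors, 6 rose.

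Of the 4 contractile and filament genes, 1 rose in Double KO liver. Acta2, the smooth muscle actin of myofibroblasts and vessel walls, was 5.80 in WT, 2.84 for IkkB KO, 2.14 for Shp2 KO and 4.14 for Double KO. WT was the highest of the 4, and Double KO was not called against it (q = 0.180 in the authors' deposited table). Tagln, a second smooth muscle protein, was 12, 6.71, 8.38 and 11.3, and Des, the filament of stellate and muscle cells, was 3.09, 2.43, 2.37 and 2.93, with WT again on top. Vim, the filament of mesenchymal cells, which other cells also express, rose from 16.6 to 34.3. In the list of 8 vascular smooth muscle markers, Cnn1, Myh11 and Mylk fell and Smtn rose in Double KO liver among 5 tested. Of all tested genes, 6.62% were called lower and 11.5% higher. The summed level of these markers was 19.5 in WT and 13.4 in Double KO, mainly Mylk, at 13.3 and 8.15. Their part in the Acta2 values was not tested.

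Of the 3 genes of resting stellate cells, 1 rose in Double KO liver. Lrat was 2.84 in WT, 2.74 for IkkB KO, 2.97 for Shp2 KO and 3.20 for Double KO (q = 0.757 for Double KO against WT in the authors' deposited table). Reln was 2.39, 2.43, 2.40 and 3.27 (q = 0.111 in the authors' deposited table). No pair of genotypes differed by the test for Lrat or Reln. Hgf was 0.973, 0.997, 1.32 and 2.39, and rose in Double KO.

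The receptors and ligands of the fibrogenic signals rose in Double KO liver where they could be tested. The PDGF receptors Pdgfra and Pdgfrb went from 0.691 to 1.29 and from 2.16 to 3.38 (q = 0.00785 and q = 0.0152 in the authors' deposited table). The ligand Tgfb1 was 3.05 in WT, 3.08 for IkkB KO, 3.31 for Shp2 KO and 6.25 for Double KO. Tgfb2 was 0.110 to 0.246 and was not tested.

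Over all classes, 30 of 42 tested members rose and 1 fell in Double KO against WT liver, where 11.5% of all 12940 tested genes were called higher and 6.62% lower. The median difference over the 44 members was 0.71, beside -0.03 over all tested genes. Double KO exceeded each single knockout as well. Against IkkB KO, 31 of 42 tested members were higher and 1 lower, beside 11.5% and 7.50% of all tested genes, and the members' median was 0.82. Against Shp2 KO, 32 were higher and 1 lower, beside 7.94% and 2.83%, with a median of 0.66. These 3 comparisons share the Double KO samples. Called higher in all 3 were 28 of the 44 members, among 604 such genes of 24319. They were 11 of 12 collagens, 7 of 11 matrix proteins, 6 of 10 enzymes and inhibitors, and Vim, Hgf, Pdgfra and Tgfb1. Double KO held the highest value for 33 of the 39 members with a value of at least 1 (84.6%), beside 28.4% of 11297 such genes in the whole table.

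**Figure D2:**
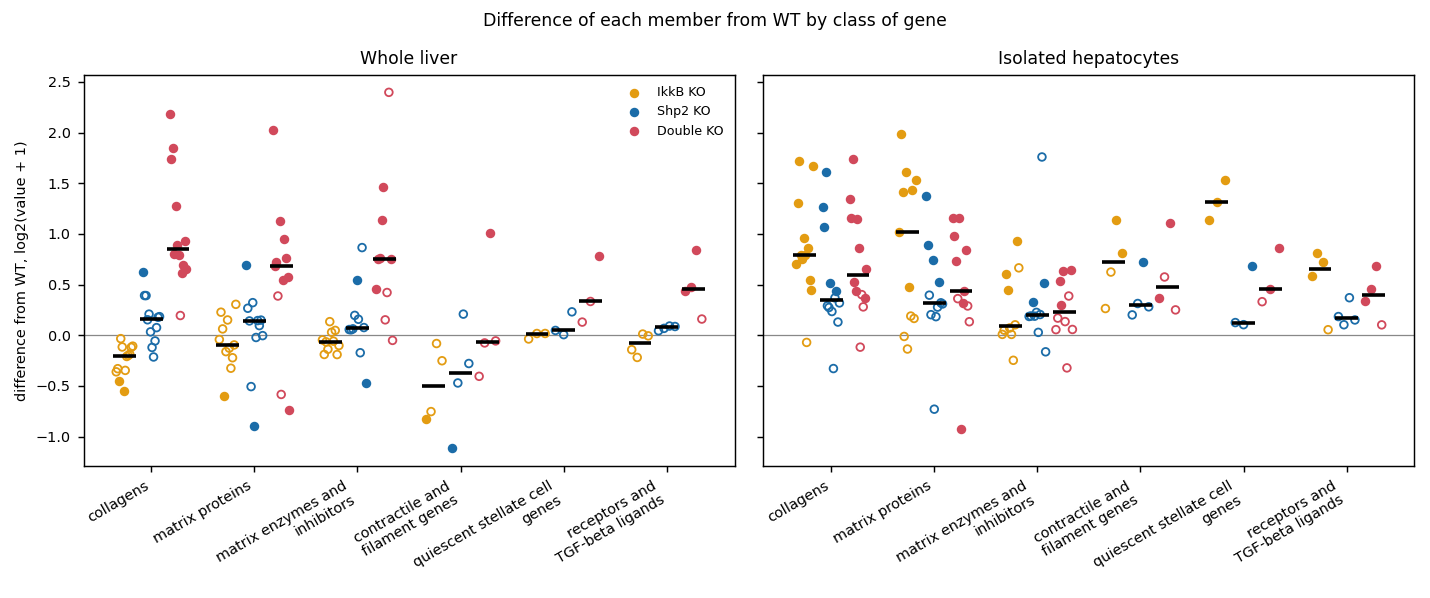
Difference of each member from WT in log2(value + 1), by class of gene, in whole liver and in isolated hepatocytes. Filled points are called, open points are not, and bars are class medians; in liver the Double KO collagens sit at a median of 0.85 and the IkkB KO collagens at -0.20.

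Markers of other liver cells moved in the same samples. All 16 macrophage markers rose in Double KO liver, beside 11.5% of all tested genes called higher. The summed level of the markers was 297 in WT, 385 for IkkB KO, 409 for Shp2 KO and 826 for Double KO. C1qb, a complement subunit that Kupffer cells make, was 42.4 in WT and 129 in Double KO. The 10 bile duct markers summed to 67.5, 41.5, 52.7 and 150, with most of it Spp1, a matrix-binding cytokine also made by other cells, which rose from 52.5 to 137. The 12 portal fibroblast and mesothelial markers summed to 31.3, 23.9, 46.8 and 75.0, mainly Gas6, at 19.2 in WT and 58.7 in Double KO, and Cd34 and Thy1 rose too. In these lists 1 marker, Sctr of the bile duct, was under 0.1 in all 4. The 9 neutrophil markers summed to 12.5, 7.84, 11.3 and 32.1, and the 11 lymphocyte markers to 8.39, 11.4, 5.26 and 10.3. The 15 sinusoidal endothelial markers summed to 173, 173, 131 and 173. The part of these cells in the members' values was not tested.

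A further 20 stellate cell markers were followed in liver. Their sum was 102 in WT, 116 for IkkB KO, 108 for Shp2 KO and 131 for Double KO. In Double KO, Cygb, Rgs5, Sod3 and Tcf21 rose among 18 tested, beside 11.5% of all tested genes called higher. Colec11, a lectin of stellate cells, was 22.4, 26.1, 25.0 and 27.4.

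Set against Lrat, the fibrillar collagens and Lum differed widely by genotype in liver. The summed level of the 5 fibrillar collagens was 19.8 in WT, 14.6 for IkkB KO, 28.0 for Shp2 KO and 81.5 for Double KO. Divided by Lrat, the sum was 6.99, 5.33, 9.43 and 25.5. Lum divided by Lrat was 1.51, 1.51, 2.53 and 6.40. Reln divided by Lrat stayed between 0.810 and 1.02, and Dcn divided by Lrat between 19.0 and 27.3. Hgf divided by Lrat was 0.343, 0.364, 0.443 and 0.747. Double KO was the highest for each of these ratios, those of Reln and Dcn included. Acta2 and Des divided by Lrat were highest in WT instead, at 2.04 and 1.09, against 1.29 and 0.915 in Double KO. These ratios have no replicate check and are given as a description.

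**Figure D3:**
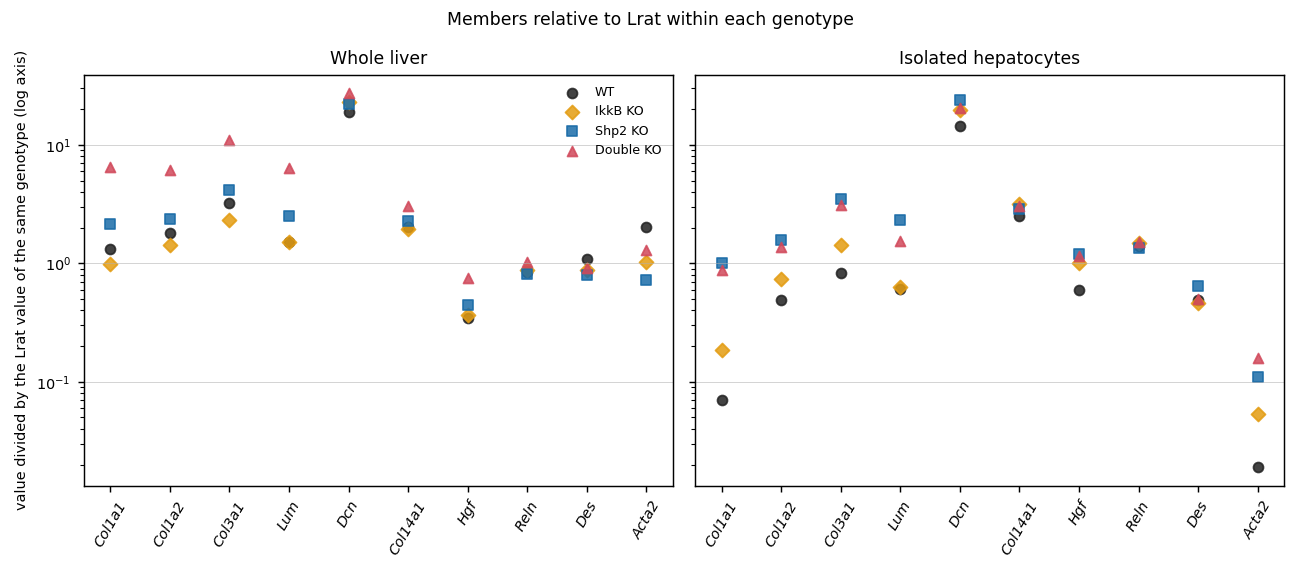
Ratios of member values to Lrat in the same genotype (log axis), in whole liver and in isolated hepatocytes. In liver the ratio of Col1a1 to Lrat runs from 0.988 in IkkB KO to 6.46 in Double KO, while Reln to Lrat lies between 0.810 and 1.02.

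In liver, 4 members were called in IkkB KO and 6 in Shp2 KO against WT. In IkkB KO liver, Col3a1, Col4a1, Dpt and Acta2 fell among 39 tested members, and 0 rose by Cuffdiff's q. With p unadjusted and under 0.05, the counts were 0 above WT and 8 below it. The background of called genes was 2.37% higher and 2.17% lower, and the members' median was -0.12. Every collagen value was lower than in WT, by 0.03 to 0.55 on the log2(value + 1) scale, with Col4a1 at 5.63 in WT and 3.53 in IkkB KO (q = 0.00732 in the authors' deposited table). Acta2 fell most, by 0.83 (q = 0.000955 in the authors' deposited table). Of the 12 portal fibroblast and mesothelial markers, Gpm6a, Krt19, Msln and Upk3b fell in the same comparison. The bile duct markers Cldn7, Krt19, Sox9 and Spp1 fell too. Their part in the members' values was not tested.

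In Shp2 KO liver, Col1a1, Lum and Mmp12 rose and Fn1, Timp3 and Acta2 fell among 41 tested members, beside 5.23% of all tested genes higher and 4.10% lower. Col1a1 rose 1.68-fold (q = 0.00732 in the authors' deposited table) and Lum 1.75-fold (q = 0.00785 in the authors' deposited table). Fn1 fell from 177 to 94.4 (q = 0.00503 in the authors' deposited table). In the same comparison 6 of 15 sinusoidal endothelial markers fell, with sums of 173 and 131, and 5 of 16 macrophage markers rose. Gas6 rose, and the smooth muscle markers Actg2, Cnn1 and Myh11 fell. The part of these cells in the members' values was not tested. The direct comparison of the single knockouts separated them further. In IkkB KO against Shp2 KO liver, 9 of 41 tested members were lower and 1 was higher, beside 5.43% and 4.84% of all tested genes. The 9 were Col1a1, Col1a2, Col3a1, Col5a2, Col4a1, Lum, Eln, Thbs1 and Mmp12, and the 1 was Fn1, at 196 in IkkB KO and 94.4 in Shp2 KO. With a log2(value + 1) difference of at least 1 also required, Fn1 alone was left, so 1 was higher and 0 lower.

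In isolated hepatocytes the order of the genotypes was another one. Stellate cell and matrix transcripts were present in these preparations although they are labelled as hepatocytes, and WT held the lowest value for 39 of the 44 members. IkkB KO held the highest for 26. Among genes with a value of at least 1, WT was lowest for 25 of 29 members (86.2%) and IkkB KO highest for 20 (69.0%), beside 23.7% and 26.8% of 10994 genes in the whole table. Against WT, 29 of 34 tested members rose in IkkB KO hepatocytes, beside 7.60% of all 12135 tested genes higher and 1.81% lower. No member fell there by Cuffdiff's q, nor with p unadjusted and under 0.05 (0 members). The members' median difference was 0.71, beside 0.00 over all tested genes.

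The rise in IkkB KO hepatocytes spanned the classes. Lrat was 1.42 in WT, 4.31 for IkkB KO, 1.64 for Shp2 KO and 2.04 for Double KO. Reln was 1.97, 6.37, 2.19 and 3.07, and Hgf 0.845, 4.35, 1.95 and 2.34. IkkB KO was highest for all 3 genes of resting stellate cells, and each rose 3.04-fold to 5.15-fold over WT (q = 0.00048 in the authors' deposited table, its smallest for hepatocytes). Dcn rose from 20.6 to 84.8, Bgn from 13.4 to 37.3, Sparc from 8.82 to 28.9 and Col14a1 from 3.59 to 13.6. Ecm1, which fell in Double KO liver, rose here from 27.5 to 81.6. Des rose from 0.696 to 1.98, while Acta2, at 0.0271 and 0.233, was not tested. Among tested members, 11 of 12 collagens, 7 of 8 matrix proteins, 3 of 5 enzymes and inhibitors, 2 of 3 filament genes, and 3 of 3 receptors and ligands rose.

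Col1a1, Col1a2, Col3a1 and Lum were among the members that rose over WT in hepatocytes of all 3 knockouts. Of the 3 basement membrane zone collagens, 1 rose in Shp2 KO and 2 rose in each of the others. In Shp2 KO, 13 of 33 tested members rose, beside 7.13% of all tested genes higher and 4.53% lower, and 0 fell by Cuffdiff's q. With p unadjusted and under 0.05, 17 were above WT and 1 below. In Double KO, 27 of 38 rose and 1, Fn1, fell, beside 9.04% and 4.56%. The medians were 0.29 and 0.44. The 3 knockouts share the WT samples, so their values are given side by side. Col1a1 was 0.1003 in WT, 0.794 for IkkB KO, 1.65 for Shp2 KO and 1.79 for Double KO. Col3a1 was 1.18, 6.16, 5.67 and 6.30, and Lum 0.854, 2.75, 3.81 and 3.15. In Shp2 KO, Hgf rose as well, from 0.845 to 1.95, while Lrat and Reln were not called (q = 0.681 and q = 0.728 in the authors' deposited table).

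**Figure D4:**
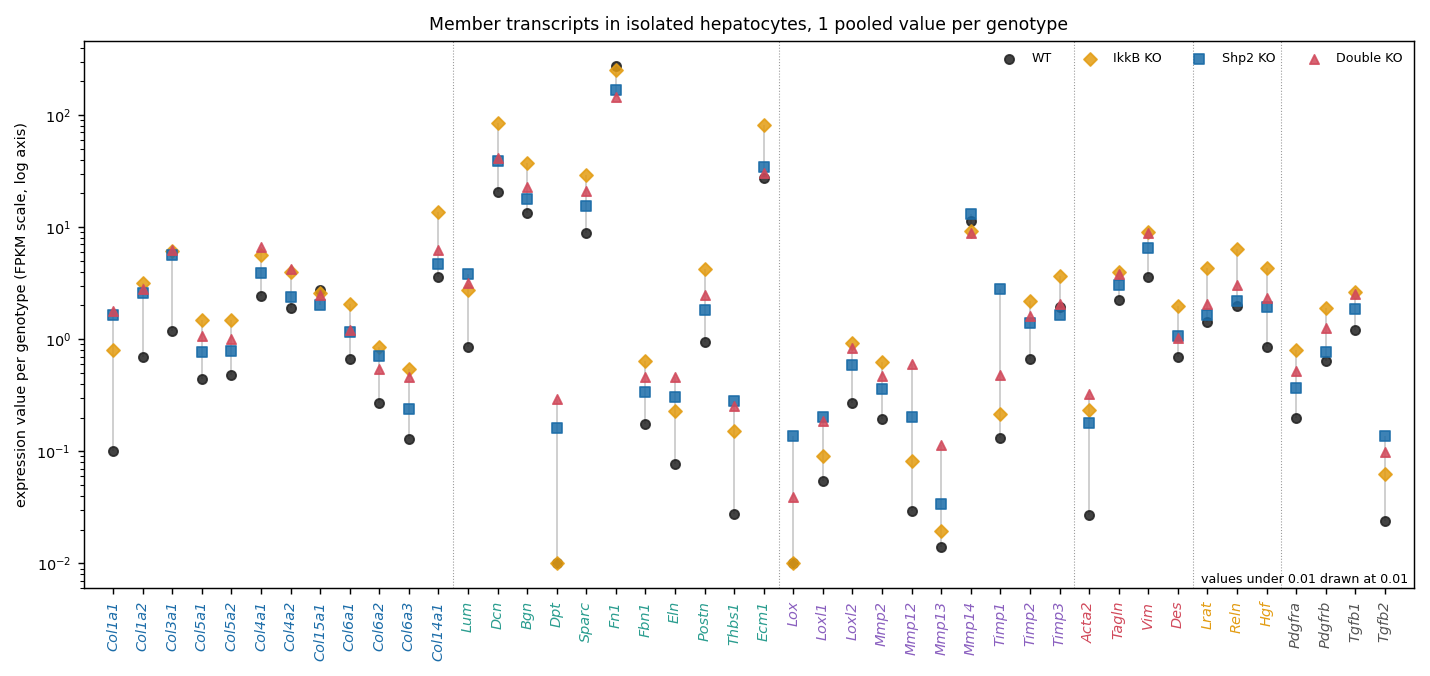
Deposited value of each of the 44 members in isolated hepatocytes (log axis, FPKM scale), 1 point per genotype with no error bar, each pooling 3 replicates. WT is lowest for 39 members, and IkkB KO tops the quiescent stellate cell genes, with Lrat at 4.31 against 1.42 in WT.

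Direct comparisons between the knockouts bore on these orders. Against IkkB KO hepatocytes, 11 of 38 tested members were lower in Double KO and 2 higher, beside 5.62% and 5.75% of all tested genes. Lower were Lrat, Reln, Hgf, Des, Dcn, Bgn, Col14a1, Fn1, Postn, Ecm1 and Timp3. Higher were Col1a1, 2.25-fold (q = 0.00442 in the authors' deposited table), and Mmp12, from 0.0814 to 0.595. Against Shp2 KO, Col4a1, Col4a2, Col6a3 and Mmp12 were higher in Double KO and Mmp14 lower among 38 tested, beside 3.44% and 3.31%. Mmp12 was the 1 member above all 3 other genotypes in Double KO hepatocytes by the test. The pair of single knockouts was not analysed here in hepatocytes.

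The collagen to Lrat ratio differed from that of liver in its order. The sum of the 5 fibrillar collagens was 2.90 in WT, 13.1 for IkkB KO, 11.4 for Shp2 KO and 13.0 for Double KO. Divided by Lrat, it was 2.05, 3.05, 6.98 and 6.34. The sums of IkkB KO and Double KO were near each other, while Lrat was 4.31 and 2.04, so their ratios were 3.05 and 6.34. Reln divided by Lrat stayed between 1.34 and 1.505, and Hgf divided by Lrat was 0.595, 1.009, 1.19 and 1.15.

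Markers of other non-hepatocyte cells are given here for the same preparations. Of the 20 further stellate cell markers, 17 of 18 tested rose in IkkB KO, 1 of 15 rose and 1 fell in Shp2 KO, and 6 of 17 rose in Double KO, beside 7.60%, 7.13% and 9.04% of all genes. The Shp2 KO count is at that background. The sums were 55.9 in WT, 152 for IkkB KO, 64.2 for Shp2 KO and 76.6 for Double KO. Gfap and Gpc3 of this list were under 0.1 in all 4. Macrophage markers summed to 118, 345, 290 and 372, and sinusoidal endothelial markers to 85.1, 168, 94.6 and 141. In IkkB KO all 15 endothelial markers rose. Bile duct markers summed to 20.3, 32.9, 45.9 and 63.2, mainly Spp1, and portal fibroblast and mesothelial markers to 11.8, 12.2, 40.2 and 39.6, mainly Gas6, at 9.28 in WT and 35.5 in Double KO. Smooth muscle markers were not above WT in sum, at 16.1, 13.7, 12.01 and 11.1, but this was mainly Mylk, at 15.1 in WT and 9.11 in Double KO. Among 2 tested, Smtn rose in IkkB KO and Double KO, from 0.894 in WT to 2.12 and 1.87. Mylk fell in Double KO, beside 4.56% of all tested genes called lower. Of the 8 markers, 5 were under 0.1 throughout. How many cells of each type the preparations held was not measured here, and its part in the members' values was not tested.

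**Figure D5:**
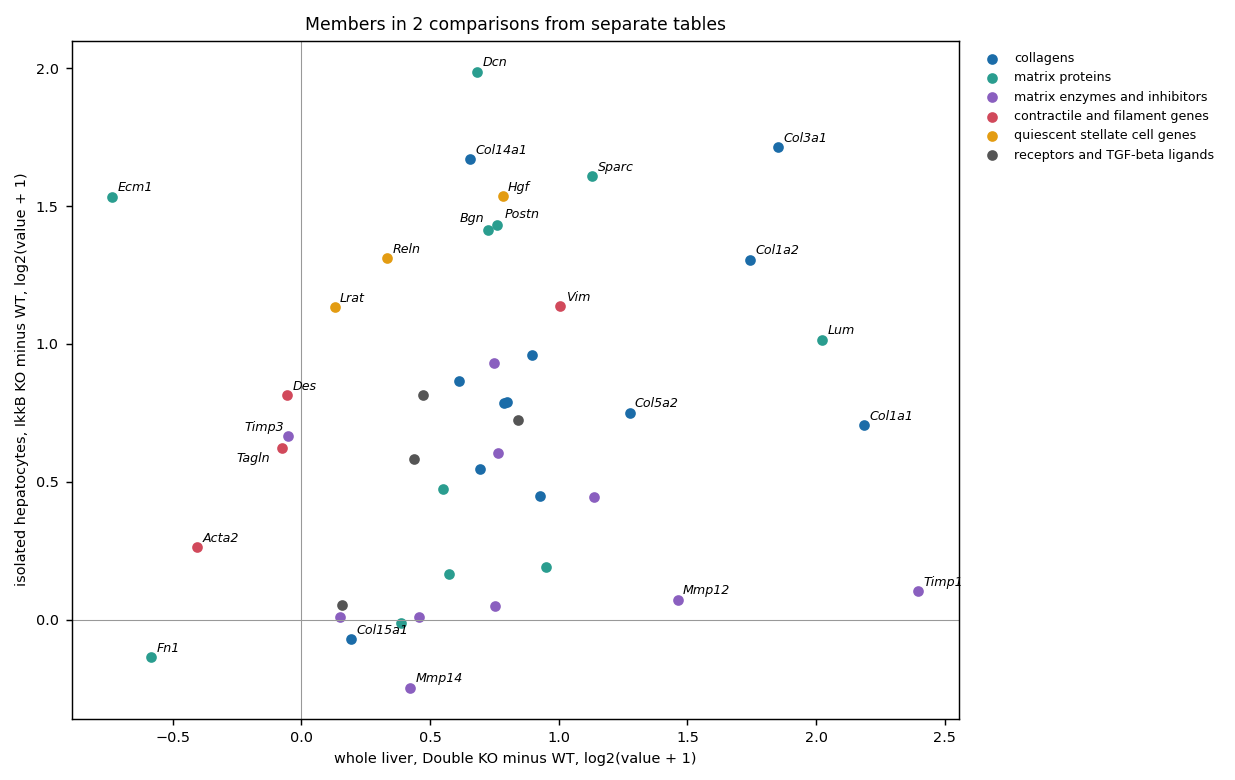
Difference from WT of each member in Double KO liver (x axis) and in IkkB KO hepatocytes (y axis), both in log2(value + 1), coloured by class. Col1a1 sits at 2.19 and 0.71, Lrat at 0.13 and 1.13, and Ecm1 at -0.74 and 1.53.

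Genes that process and fold collagen were followed from a list. Of 23 genes of collagen synthesis, 21 were tested in Double KO liver, and 8 rose and 1 fell, beside 11.5% and 6.62% of all genes. Adamts2, which removes the N-terminal propeptide of collagen, rose from 0.895 to 2.38, and P4ha1, a prolyl hydroxylase subunit, from 3.20 to 5.88. Ppib, a collagen-folding isomerase that also serves other secreted proteins, was the 1 that fell. Serpinh1, the collagen chaperone, fell in IkkB KO liver from 11.3 to 6.99 and rose in all 3 knockouts of the hepatocyte table, from 2.20 in WT to between 5.60 and 6.65.

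Of 36 further collagens and matrix genes, 13 of 33 tested rose and 1 fell in Double KO liver, beside the same shares of all genes. Emilin1 and Nid1, an elastic fibre protein and a basement membrane linker, rose from 5.54 to 12.9 and from 2.08 to 5.37. Col27a1, a fibrillar collagen chain, went the other way, from 12.4 to 2.91, and fell in all 3 hepatocyte knockouts too. In hepatocytes 15 of 20 tested genes of this list rose in IkkB KO, 4 of 18 in Shp2 KO and 11 of 19 in Double KO, beside 7.60%, 7.13% and 9.04% of all genes. In the list of 20 matrix proteases, 7 of 15 tested rose in Double KO liver, Ctsk from 0.791 to 2.21 among them, and Mmp15 fell from 16.3 to 8.63.

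The TGF-beta signalling list was called at a share near that of all genes in Double KO. In liver 4 of 27 tested rose, beside 11.5% of all genes, among them the responsive genes Tgfbi (14.6 to 31.1) and Ctgf (3.96 to 6.71) and the integrin Itgb5, and the co-receptor Tgfbr3 fell. In hepatocytes 8 of 26 tested rose in IkkB KO, 4 of 26 in Shp2 KO and 2 of 25 in Double KO, beside 7.60%, 7.13% and 9.04% of all genes, and Tgfbi and Ctgf were called in each. Of 11 genes of PDGF and Hgf signalling, Pdgfb and Pdgfrl rose in Double KO liver, and Hgfac, the protease that activates Hgf, fell from 161 to 63.9.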

How the data were processed

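Polyadenylated RNA was sequenced with TruSeq v2 libraries, per the labels' protocols. The submitters' processing notes name FastQC, Cuffdiff and build mm9, with no versions, and the aligner, annotation and strand setting were not given in these sources. The deposited tables hold 1 value per gene and genotype, on the FPKM scale by Cuffdiff's convention, with p-values and q-values by the authors for 6 liver pairs and 5 hepatocyte pairs; 0 columns hold per-sample values. The deposited liver q-values matched a Benjamini-Hochberg adjustment over all 6 pairs (largest difference 5.27e-07). The hepatocyte q-values did not match over the 5 pairs (largest difference 0.284). The smallest deposited p-value was 5e-05. Because the tables hold no counts, no model was refitted.

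From these tables the genotype values, log2(value + 1) differences, calls (q under 0.05, a value of at least 0.1 in 1 genotype) and medians were computed with Python 3.11.15, numpy 2.4.6, pandas 2.3.3 and matplotlib 3.10.9. The code was tested on simulated data. The p-values rest on 3 biological replicates per genotype. The members and all lists were chosen with earlier results of these data known. Outside the members, text names by rule the called genes of each list with the smallest q, then the largest difference, and the most abundant markers; further called genes named after their values were seen fill short lists, and 1 gene of a pathway list is not reported here. Alternatives tried were a q under 0.01, an adjustment within each comparison, other value minimums, a pseudocount of 0.1, a log2 minimum of 1, centring on all genes, and leaving out Fn1 and Ecm1, the last added after seeing the data, as was the IkkB KO against Shp2 KO liver pair.

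Promoter windows came from RefSeq (GRCm38.p6) and overlaps from GENCODE vM21; neither is mm9, so no coordinate was joined to the tables, and genes were matched by symbol. The exons of Col4a1 and Col4a2, Tagln and Pcsk7, Mmp12 and Mmp1b, and Fn1 and Apol7d overlap on opposite strands there, so these values are uncertain.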

Additional observations from a re-analysis of the deposited data

How the results depend on the processing

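No paired analysis was possible because the deposited tables pool the 3 replicates of a genotype into 1 value, and no replicate could be left out for the same reason. No median changed sign under the alternatives run. The balance of called members turned in 1 comparison, IkkB KO against Shp2 KO liver, from 1 higher and 9 lower to 1 higher and 0 lower under a log2 minimum of 1. Shp2 KO against WT liver, at 3 higher and 3 lower, had 2 and 3 with a value of at least 1, and 3 and 2 with q under 0.01. Leaving the low-value filter out or centring on all genes changed none of the 11 counts or medians past the set limits. Requiring q under 0.01 left 2 called members of 4 in IkkB KO liver, 7 of 13 in Shp2 KO hepatocytes, 7 of 13 in Double KO against IkkB KO hepatocytes and 2 of 5 in Double KO against Shp2 KO hepatocytes. Adjusting within the comparison left 2 in IkkB KO liver and 2 in Double KO against Shp2 KO hepatocytes, where a value of at least 1 left 3.

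Requiring also a log2 difference of at least 1 can only lower a count, and every count fell. The pseudocount shrinks the differences of low genes. Abundant genes were dropped too, among them Dcn (54.0 to 87.4) and Bgn (47.9 to 79.9) in Double KO against WT liver. In liver the requirement left 0 for IkkB KO, 1 for Shp2 KO and 9 for Double KO against WT. It left 14 in Double KO against IkkB KO, 5 against Shp2 KO, and 1, Fn1, between the single knockouts. In hepatocytes it left 13, 4 and 7 against WT, 3 in Double KO against IkkB KO and 0 against Shp2 KO. With a pseudocount of 0.1 the liver medians were -0.23 in IkkB KO and 0.94 in Double KO against WT, 1.16 and 0.82 in Double KO against IkkB KO and Shp2 KO, and -0.36 between the single knockouts. The hepatocyte medians were 1.40, 0.69 and 1.02 against WT and 0.32 in Double KO against Shp2 KO. Over members with a value of at least 1, hepatocyte medians were 0.96 in IkkB KO and 0.65 in Double KO against WT, and -0.34 in Double KO against IkkB KO. Depth is unknown, so no floor can be set for low values such as Lox.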
